A study of Homo sapiens with 6 samples.

Results

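The collagen genes are described here in T24 cells, a human bladder cancer cell line, with and without targeting of OTUD1, the gene of a deubiquitinase of the OTU family. Members were all genes whose symbol is COL, a type number, A and a chain number, with nothing after it. This gave 44 of the 58735 genes in the deposited table and left out antisense transcripts and pseudogenes with collagen names. No measured value entered that choice, but the family was put forward with results of the same comparison known, so the tests below describe single genes and are not support for the family as a whole. RNA sequencing was done on 6 libraries. The 3 control libraries, labelled sgNC, came from T24 cells with an empty vector as negative control. The other 3, labelled sgOTUD1, came from T24 cells whose genotype is given as OTUD1 knockout. The labels give neither the guide sequence nor whether the knockout cells were a clone or a pool. Nor do they say whether replicates were separate cultures; p-values here cover only the spread among these libraries, which may be technical.

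Collagens are secreted or membrane proteins built as a triple helix of alpha chains, each made of short repeats in which glycine returns at regular steps. Fibrillar collagens pack into the cross-banded fibrils of connective tissue, type IV collagens form the sheet-like network of basement membranes, and transmembrane collagens sit in the plasma membrane with their collagenous part outside the cell. In stratified and urinary tract epithelia the basal cells rest on a type IV network and hold to it through type XVII collagen of hemidesmosomes and type VII anchoring fibrils, whereas fibrillar types I, III and V are mostly made by fibroblasts.

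Libraries held 16697370 to 17191933 reads on genes. OTUD1 itself was not reduced in sgOTUD1, at 17.05 ± 0.83 FPKM against 14.7 ± 0.83 FPKM in sgNC (SD, n = 3 each). FPKM here are fragments scaled by exon length and by a constant of each library, which is not its number of reads on genes. OTUD1 was called higher, with a log2 difference (fold change on the log2(FPKM + 1) scale) of 0.20 (limma adjusted p = 0.0167, SE 0.054, two-sided exact permutation p = 0.1, the lowest value possible with 3 libraries a group). That call ended with median-ratio rescaling (0.071), TPM (0.061) and limma-voom (0.082), and the value was -0.062, not called, after length correction. No setting gave a called decrease, and sgOTUD1 below means the libraries labelled so. A transcript level does not check an edit of the coding sequence. The cells carried epithelial markers at high level. KRT5 was at 1195 FPKM and EPCAM at 68.1 FPKM in sgNC. Of 6 fibroblast markers PDGFRB and LUM were at 0 in all libraries and only FAP passed the filter on low values, with 4.01 FPKM in sgNC and 3.37 FPKM in the libraries labelled sgOTUD1, and the summed level of the list was 3.94 to 4.17 FPKM in sgNC and 3.23 to 3.69 FPKM in the others. Among 4 endothelial markers KDR was at 0 and CDH5 was at 2.20 FPKM in sgNC and 0.644 FPKM in sgOTUD1, with list sums of 2.52 to 2.69 and 0.752 to 0.902 FPKM. Among 3 leukocyte markers PTPRC was at 0 and CSF1R at 1.14 and 0.429 FPKM, with sums of 0.999 to 1.29 and 0.416 to 0.599 FPKM. Of 5 epithelial markers 4 were higher and CDH1 was lower, and their sum was 2064 to 2194 FPKM and 2619 to 2752 FPKM. Of 3 bladder markers GATA3 was higher (3.96 and 4.94 FPKM) and UPK2 was not called. After length correction KRT14, EPCAM and GATA3 were no longer called (limma adjusted p from 0.0598 to 0.337). Mitochondrial genes took 4.01% ± 0.18 of reads in sgNC but 2.15% ± 0.077 in sgOTUD1 (SD, n = 3 each). The part of these differences in the collagen results was not tested.

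Of the 44 collagen genes, 16 had a mean of at least 0.5 FPKM over the 6 libraries and were tested. Another 5 reached 0.1 FPKM in some library, and 23 stayed below it in every library, 5 of them with no read at all. At the threshold, COL4A4 was inside with a mean of 0.665 FPKM and COL11A2 outside with 0.497 FPKM. Collagens together took 0.280% ± 0.0022 of the reads assigned in sgNC, and 0.184% ± 0.0041 in sgOTUD1 (SD, n = 3 each). All 44 genes summed to 309, 305 and 311 FPKM in sgNC and to 215, 228 and 219 FPKM in sgOTUD1, so the groups did not overlap. COL17A1 alone made up 64.1% ± 0.54 of that sum in sgNC and 63.3% ± 0.79 in sgOTUD1. In bulk RNA, fewer cells that make a transcript and less of it per cell cannot be told apart.

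**Figure D1:**
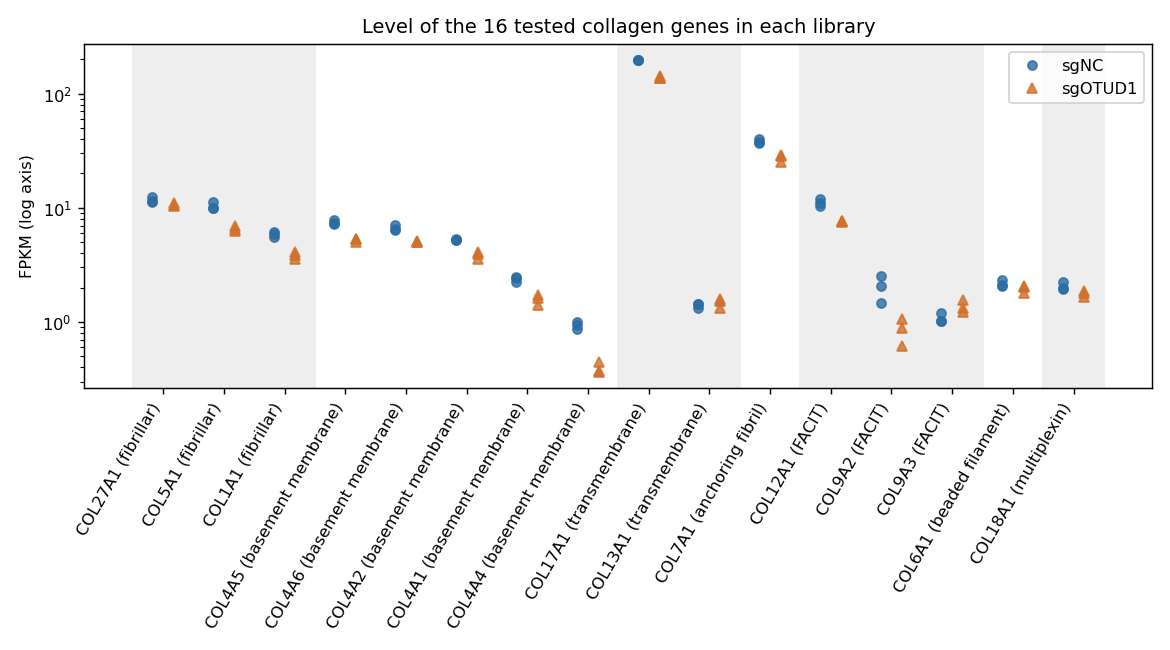
Level of the 16 tested collagen genes, in FPKM on a log axis, with circles for the 3 sgNC libraries and triangles for the 3 sgOTUD1 libraries, grouped by class. COL17A1 lies between 137 and 199 FPKM, far above the other members, and in 13 of the 16 genes all sgOTUD1 points lie below all sgNC points.

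At a limma adjusted p under 0.05, with adjustment over all 14658 tested genes, 11 of the 16 tested collagens were lower in the libraries labelled sgOTUD1 and 0 were higher. Over all tested genes 24.7% were lower and 31.2% higher. In 13 collagens every sgOTUD1 value was below every sgNC value, as in 29.1% of all tested genes. The median log2 fold change, on the log2(FPKM + 1) scale, was -0.41 over the tested collagens, with a range from -0.70 to 0.19, and 0.03 over all tested genes. Since the members were put forward with this contrast known, nothing is read from these shares about the family.

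The transmembrane class held the most abundant collagen, which fell, and COL13A1, which did not pass the test. COL17A1 (ENSG00000065618, chromosome 10, 104031286 to 104085957, minus strand of hg38) encodes the hemidesmosome collagen, also called BP180, which ties basal cells to the basement membrane. It was at 199, 196 and 198 FPKM in sgNC and at 137, 144 and 137 FPKM in sgOTUD1, and ranked 147th of all genes by its sgNC mean. The groups were far apart compared with the spread within each. COL17A1 fell by 0.50 on the log2 scale (SE 0.032, limma adjusted p = 2.87e-05), to 0.706 times its sgNC mean. COL13A1, whose product lies at cell adhesion sites and at the neuromuscular junction, was at 1.45, 1.32 and 1.44 FPKM in sgNC and at 1.60, 1.54 and 1.33 FPKM in sgOTUD1. Its groups overlapped, and its log2 difference of 0.05 (limma adjusted p = 0.594, SE 0.074) did not pass the test and turned to between -0.06 and -0.03 with median-ratio rescaling, TPM and limma-voom. The level of COL13A1 relative to COL17A1 in the same library, which does not depend on the scaling between libraries, was 0.0071 ± 0.00030 in sgNC and 0.0107 ± 0.00097 in sgOTUD1 (SD, n = 3 each), with no overlap. COL23A1 and COL25A1, the other members of the class, stayed below 0.1 FPKM in every library.

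All 5 tested basement membrane chains were lower, with log2 fold changes from -0.47 to -0.33 and no overlap between groups in any of them. Of all tested genes 24.7% were called lower and 29.1% lay lower without overlap. The 5 chains have exon lengths of 9282 to 19293 nt, and 47.7% of tested genes over 8000 nt were called lower. After length correction 3 of the 5 were called lower, beside 31.8% of all tested genes. Type IV collagen genes lie as head-to-head pairs that are read in opposite directions from a common stretch of DNA. COL4A1 and COL4A2 encode the chains of the type IV collagen found in nearly all basement membranes. COL4A5 and COL4A6 encode chains of basement membranes under some epithelia and around smooth muscle, and COL4A3 and COL4A4 join COL4A5 in the kidney glomerulus. The stretches are shown because each lies between starts given for the 2 genes of a pair. Levels within a library were compared for COL4A1 with COL4A2 and for COL4A6 with COL4A5, and COL4A3 was too low for that. RefSeq puts 126 bases between the starts of COL4A1 and COL4A2, 418 between those of COL4A4 and COL4A3 and 379 between the upstream start of COL4A6 and that of COL4A5. GENCODE 29 starts COL4A2 further upstream, at 110305812, so the stretch between COL4A1 and COL4A2 lies within its annotated span. The sequences below are from RefSeq, GRCh38.p14, written 5′ to 3′ on the plus strand, at chr13:110307158-110307283 (the whole stretch), chr2:227164454-227164564 (between the outer starts of the pair in GENCODE 29) and chrX:108439588-108439837 (the bases just before the COL4A5 start). Capitals mark matches on either strand to CCAAT or GGGCGG, the core letters of the CCAAT box and the GC box.
COL4A1-COL4A2: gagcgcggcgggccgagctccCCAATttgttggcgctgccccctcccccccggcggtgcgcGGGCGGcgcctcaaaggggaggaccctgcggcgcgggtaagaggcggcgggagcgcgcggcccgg
COL4A4-COL4A3: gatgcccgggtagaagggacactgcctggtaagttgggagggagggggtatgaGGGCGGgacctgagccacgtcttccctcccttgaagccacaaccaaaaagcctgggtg
COL4A6-COL4A5: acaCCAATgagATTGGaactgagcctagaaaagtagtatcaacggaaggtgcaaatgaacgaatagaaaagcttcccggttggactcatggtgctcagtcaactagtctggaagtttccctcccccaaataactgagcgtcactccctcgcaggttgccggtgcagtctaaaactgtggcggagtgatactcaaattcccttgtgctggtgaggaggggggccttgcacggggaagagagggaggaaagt

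The stretch between COL4A1 and COL4A2 is 80.2% G and C with 20 CG dinucleotides and held 1 match to each motif. Matches to CCAAT occurred in 21.9% and to GGGCGG in 34.6% of 27305 promoters over the same number of bases before the start. The shown part of the COL4A4-COL4A3 stretch is 61.3% G and C, with 3 CG dinucleotides, and held 1 match to GGGCGG, as 32.9% of promoters do over that length, and none to CCAAT (20.2%). The stretch before COL4A5 is 51.2% G and C, with 8 CG dinucleotides, and held 2 matches to CCAAT (33.0% of promoters hold any) and none to GGGCGG (42.3%). No stretch held TATAAA, the core letters of the TATA box, which 6.23%, 5.72% and 11.1% of promoters hold over the 3 lengths. The matches to the motifs do not overlap each other, and they describe letters, not binding.

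COL4A5 (ENSG00000188153, chromosome X, 108439844 to 108697545, plus strand) was at 7.44, 7.75 and 7.25 FPKM in sgNC and at 5.37, 5.06 and 5.37 FPKM in sgOTUD1, a log2 difference of -0.44 (limma adjusted p = 0.000225, SE 0.046). Its neighbour COL4A6, read the other way from 108439497, was at 6.47, 6.35 and 7.07 FPKM and at 5.03, 5.14 and 5.01 FPKM, a log2 difference of -0.33 (limma adjusted p = 0.00122, SE 0.050). The ratio of COL4A6 to COL4A5 within a library was 0.888 ± 0.079 in sgNC and 0.962 ± 0.048 in sgOTUD1 (SD, n = 3 each), and the ranges overlapped. Both genes of this pair were thus present at similar levels per length and both fell.

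COL4A2 (ENSG00000134871, chromosome 13, 110305812 to 110513209, plus strand) was at 5.24, 5.30 and 5.28 FPKM in sgNC and at 3.57, 3.97 and 4.13 FPKM in sgOTUD1, and fell by 0.36 on the log2 scale (SE 0.055, limma adjusted p = 0.00132). COL4A1, on the other strand and ending at 110307233, was at 2.43, 2.25 and 2.45 FPKM and at 1.61, 1.42 and 1.73 FPKM, and fell by 0.39 (SE 0.070, limma adjusted p = 0.00300). The ratio of COL4A1 to COL4A2 was 0.451 ± 0.022 in sgNC and 0.409 ± 0.048 in sgOTUD1, with overlapping ranges. Exon length here is that of all annotated exons of a gene joined, 19293 nt for COL4A2 and 14738 nt for COL4A1, which lowers the FPKM of genes with many annotated transcripts. Both calls ended with length correction, which also changes the scaling between libraries. There COL4A2 was at -0.02 (limma adjusted p = 0.781) and COL4A1 at -0.19 (limma adjusted p = 0.0677).

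The third pair was unequal. COL4A4 was at 0.874, 1.00 and 0.931 FPKM in sgNC and at 0.447, 0.373 and 0.364 FPKM in sgOTUD1, from a mean of 167 and 65.3 reads. It fell by 0.47 on the log2(FPKM + 1) scale (SE 0.093, limma adjusted p = 0.00421), which understates the change of so low a gene, since its sgOTUD1 mean was 0.421 times its sgNC mean. COL4A3, on the other side of the stretch shown above, had 25 reads over all 6 libraries, at most 0.0433 FPKM in any, and was not tested.

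Fibrillar collagens had 3 tested members of 11. COL5A1 (ENSG00000130635, chromosome 9, 134641774 to 134844843, plus strand), a chain of the type V collagen that regulates fibril diameter, was at 9.92, 10.04 and 11.2 FPKM in sgNC and at 6.21, 6.86 and 6.53 FPKM in sgOTUD1. It fell by 0.59 on the log2 scale (SE 0.059, limma adjusted p = 0.000168), and its groups did not overlap. COL1A1 (ENSG00000108821, chromosome 17, 50183289 to 50201632, minus strand), a chain of the main collagen of skin and bone, was at 5.90, 5.55 and 6.17 FPKM in sgNC and at 3.55, 4.09 and 3.90 FPKM in sgOTUD1. It fell by 0.50 (SE 0.061, limma adjusted p = 0.000421). Of the fibroblast markers given above, PDGFRB and LUM were at 0, and the highest group mean among PDGFRA, DCN and THY1 was 0.0125 FPKM. FAP was present, at 4.01 FPKM in sgNC and 3.37 FPKM in sgOTUD1, and was called lower (limma adjusted p = 0.0252).

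COL27A1 (ENSG00000196739, chromosome 9, 114155560 to 114312511, plus strand), a fibrillar collagen of cartilage, did not follow them. It was at 12.4, 11.5 and 11.2 FPKM in sgNC and at 10.4, 10.9 and 10.7 FPKM in sgOTUD1, with the highest mean among fibrillar genes in either group. Its groups did not overlap, but the difference was small, and its log2 difference of -0.12 (limma adjusted p = 0.0626, SE 0.047) did not pass the test. The call also depends on the processing. COL27A1 was called lower without sgNC replicate 3 (-0.15, limma adjusted p = 0.0444), with median-ratio rescaling (-0.25), with TPM (-0.28) and with limma-voom (-0.26). Only length correction gave a positive value, and COL27A1 was called higher there (0.13, limma adjusted p = 0.0480). Its exon length is 13988 nt. Within a library, the ratio of COL27A1 to COL5A1 was 1.13 ± 0.12 in sgNC and 1.64 ± 0.041 in sgOTUD1 (SD, n = 3 each), with no overlap, whereas the ratio of COL5A1 to COL1A1 was 1.77 ± 0.075 and 1.70 ± 0.042 with overlap. These pairs were chosen after their values were seen.

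Outside the 3 classes, COL7A1 (ENSG00000114270, chromosome 3, 48564073 to 48595267, minus strand), which encodes the collagen of the anchoring fibrils below the basement membrane, was the second most abundant collagen. It was at 37.8, 36.7 and 40.4 FPKM in sgNC and at 25.3, 28.6 and 28.9 FPKM in sgOTUD1, and fell by 0.46 on the log2 scale (SE 0.062, limma adjusted p = 0.000677). Relative to COL17A1, its partner in anchoring basal cells, it was at 0.194 ± 0.0092 in sgNC and 0.198 ± 0.014 in sgOTUD1, with overlapping ranges. After length correction COL7A1 was at -0.28 and COL17A1 at -0.48. COL12A1 encodes a fibril-associated collagen with interrupted triple helices (FACIT), a class that coats fibrils rather than forming them. It was at 11.03, 12.1 and 10.4 FPKM in sgNC and at 7.71, 7.50 and 7.64 FPKM in sgOTUD1, and fell by 0.49 (SE 0.057, limma adjusted p = 0.000338).

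The type IX chains, also FACIT collagens and best known from cartilage, went apart. COL9A2 was at 1.46, 2.07 and 2.54 FPKM in sgNC and at 0.612, 1.05 and 0.885 FPKM in sgOTUD1, from a mean of 151 and 58.7 reads. It fell by 0.70 (SE 0.15, limma adjusted p = 0.00681), the largest decrease among the tested collagens on this scale, and its sgNC libraries were widely spread. COL9A3 was at 1.01, 1.01 and 1.19 FPKM in sgNC and at 1.33, 1.55 and 1.23 FPKM in sgOTUD1. Its sgOTUD1 values were all above the sgNC values, but its log2 difference of 0.19 (limma adjusted p = 0.0982, SE 0.086) did not pass the test. The ratio of COL9A2 to COL9A3 was 1.87 ± 0.38 in sgNC and 0.620 ± 0.14 in sgOTUD1 (SD, n = 3 each), with no overlap. Exons of COL9A3 share 45 bases, 0.930% of its exon length, with TCFL5 on the other strand, and the sources used here do not give the strand setting.

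COL6A1 and COL18A1 did not pass the test. COL6A1, a chain of the beaded filaments around many cells, was at 2.11, 2.05 and 2.31 FPKM in sgNC and at 2.01, 2.06 and 1.79 FPKM in sgOTUD1, with overlap and a log2 difference of -0.10 (limma adjusted p = 0.263, SE 0.068). COL18A1, a heparan sulfate collagen of basement membranes and the source of endostatin, was at 1.99, 2.25 and 1.94 FPKM and at 1.66, 1.85 and 1.79 FPKM, with a log2 difference of -0.14 (limma adjusted p = 0.117, SE 0.069). Its exons share 1401 bases, 16.4% of their length, with SLC19A1 on the other strand, and reads there could belong to either. COL6A1 and COL18A1 were both called lower with median-ratio rescaling, with TPM and with limma-voom.

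Several collagens had transcripts for some of their chains and low levels or none for other chains of the same type. COL1A1 was present at 5.87 ± 0.31 FPKM in sgNC, while COL1A2, the other type I chain, had 1 read in all 6 libraries. COL5A1 was at 10.4 ± 0.69 FPKM in sgNC and COL5A2 at 0.166 ± 0.061 FPKM (SD, n = 3 each), and COL5A3 was at 0.479 ± 0.037 FPKM. COL6A1 was read at 2.16 ± 0.14 FPKM, whereas COL6A2 was listed at 0 and COL6A3 had 1 read in all. COL9A2 and COL9A3 were read without COL9A1, which was listed at 0. In sgOTUD1, COL1A2, COL6A2, COL6A3 and COL9A1 were listed at 0, COL5A2 was at 0.0658 ± 0.050 FPKM and COL5A3 at 0.419 ± 0.062 FPKM (SD, n = 3 each).

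**Figure D2:**
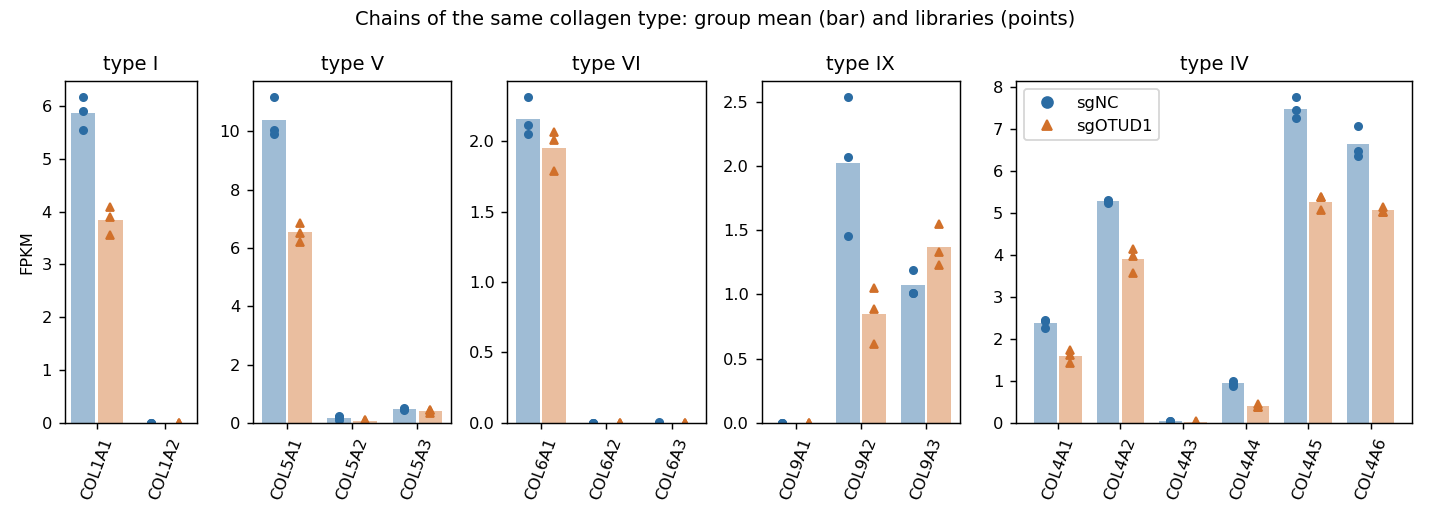
FPKM of the chains of collagen types I, V, VI, IX and IV, on linear axes that start at 0 and differ between panels, with bars for group means and points for the 3 libraries of each group (circles sgNC, triangles sgOTUD1). COL1A2, COL6A2, COL6A3, COL9A1 and COL4A3 lie at or near 0 in both groups beside other chains of the same type that are clearly read.

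Among the members too low for the test, 5 reached 0.1 FPKM. COL11A2, a fibrillar chain of cartilage, was at 0.578, 0.677 and 0.628 FPKM in sgNC and at 0.401, 0.265 and 0.436 FPKM in sgOTUD1, without overlap. With no filter on low values its log2 fold change was -0.25 (limma adjusted p = 0.0857). COL16A1 (0.232 against 0.144 FPKM on average) and COL28A1 (0.108 against 0.0458 FPKM) also had no overlap between groups, whereas COL5A3 and COL5A2 did overlap, and none of the 5 passed that test (adjusted p from 0.0857 to 0.605). The other 23 stayed below 0.1 FPKM with at most 25 reads over all libraries. Of these, COL3A1, COL6A2, COL9A1, COL19A1 and COL22A1 were listed at 0 throughout, and 3 reads per library, the limit that a count of 0 allows, would be worth 0.0196 to 0.0343 FPKM for them. These limits cover counting error only.

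Set side by side, the 3 classes held different levels, and their sums were all lower in sgOTUD1. The 11 fibrillar genes summed to 29.3 ± 0.72 FPKM in sgNC and 21.9 ± 0.90 FPKM in sgOTUD1, 0.749 times as much. Basement membrane genes went from 22.7 ± 0.26 to 16.2 ± 0.35 FPKM, 0.713 times, and transmembrane genes from 199 ± 1.7 to 141 ± 4.3 FPKM, 0.709 times (SD, n = 3 each). Groups did not overlap in any of these sums. After length correction the log2 ratio of the sums was -0.20 for fibrillar and -0.25 for basement membrane genes, against -0.42 and -0.49 before it, and -0.48 for transmembrane genes, against -0.50. As a share of all collagen FPKM, the transmembrane class was at 64.6% ± 0.54 and 63.9% ± 0.86, the basement membrane class at 7.37% ± 0.077 and 7.35% ± 0.29, both with overlap, and the fibrillar class at 9.49% ± 0.14 and 9.94% ± 0.16 without overlap. The median log2 fold change of tested members was -0.50 over 3 fibrillar, -0.39 over 5 basement membrane and -0.22 over 2 transmembrane genes. The medians were not tested against each other. The transmembrane sum is nearly all COL17A1, and COL27A1 holds the largest share of the fibrillar sum.

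**Figure D3:**
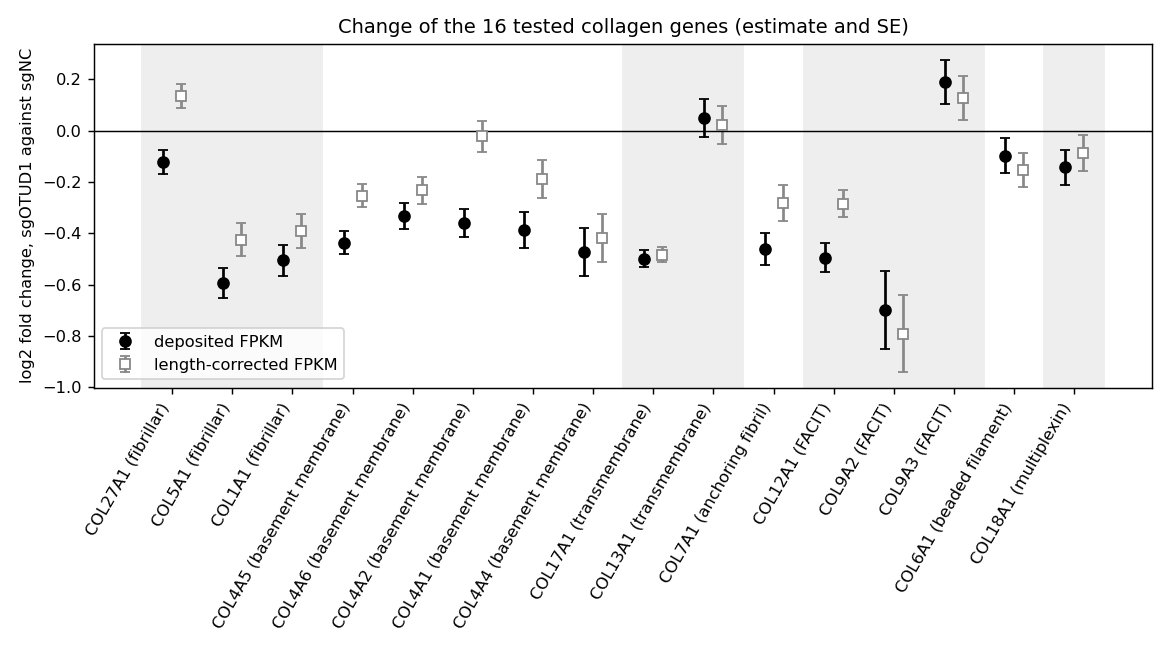
Log2 fold change of the 16 tested collagen genes with its standard error, sgOTUD1 against sgNC, from the deposited FPKM (filled circles) and after length correction (open squares), grouped by class. COL17A1 moves from -0.50 to -0.48 with the correction, COL4A2 from -0.36 to -0.02 and COL27A1 from -0.12 to 0.13.

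Collagen transcripts share properties that the choice of members did not use. The tested collagens have a median exon length of 9948 nt, against 4122 nt over all tested genes, and a median of 50.5 separate exon blocks against 8. Their transcripts are 60.7% G and C at the median, against 48.6%. Across all tested genes fold change goes with exon length. Those up to 4000 nt had a median log2 fold change of 0.15 and 14.4% were called lower, while the 2457 genes over 8000 nt had a median of -0.16 and 47.7% were lower. Of the 11 tested collagens over 8000 nt, 9 were lower, with a median of -0.44. Between 4000 and 8000 nt, 2 of 5 collagens were lower, beside 27.9% of the 5084 genes of that length. Over the 16 collagens the Pearson correlation of log2 fold change with log2 exon length was -0.29, beside -0.16 over all tested genes. For the 16 that with G and C content was 0.38 and that with log2 sgNC FPKM -0.42. These are given as descriptions of genes that share libraries.

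Length correction divides out of each library its fitted trend with exon length together with its fitted level, so it also rescales between libraries. After it, 9 of the 16 collagens were lower and 1, COL27A1, was higher, beside 31.8% lower and 21.4% higher of all tested genes. The parts of length and of level in these changes were not separated. The median of the 16 went from -0.41 to -0.24 and that of all tested genes from 0.03 to -0.07. COL17A1 stayed at -0.48 (limma adjusted p = 3.18e-05), COL9A2 at -0.79, COL5A1 at -0.42, COL4A4 at -0.42 and COL1A1 at -0.39. COL7A1 (-0.28), COL12A1 (-0.28), COL4A5 (-0.25) and COL4A6 (-0.23) were also still called lower. These 9 genes were lower at an adjusted p under 0.05 in every one of the 15 other settings in which they were tested.

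**Figure D4:**
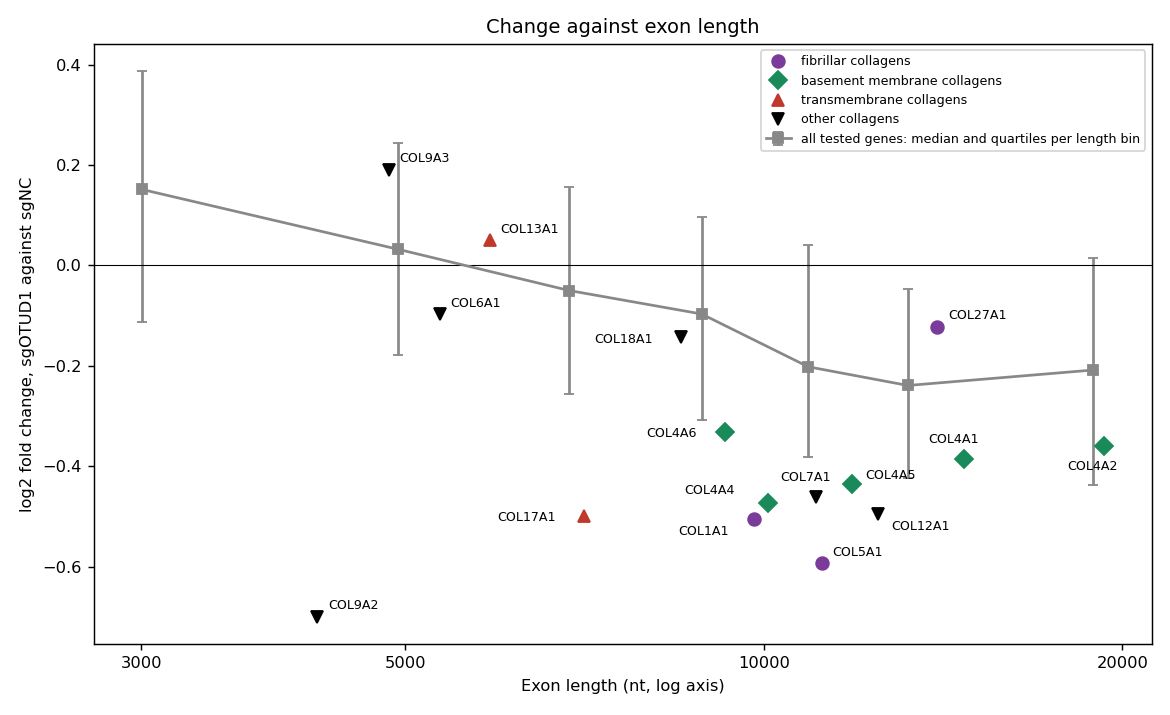
Log2 fold change, sgOTUD1 against sgNC, against exon length on a log axis, with squares and bars for the median and quartiles of all tested genes in length bins above 2000 nt and symbols for the 16 tested collagens by class. The median of all genes is 0.15 in the bin of 2000 to 4000 nt and -0.24 in that of 12000 to 16000 nt, and COL17A1, COL9A2 and COL5A1 lie below the lower quartile of their bin while COL4A1 and COL4A2 do not.

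Genes that modify, fold, export, trim, cross-link, bind or cut collagen moved in both directions. Of 51 such genes 37 were tested, 13 were higher and 7 were lower. Their median was 0.10 on the log2 scale, beside 31.2% higher and 24.7% lower of all tested genes. This split depends on scaling, with 7 higher and 14 lower under median-ratio rescaling and 6 higher and 15 lower with TPM. All tested genes shifted too, to 22.3% higher and 33.9% lower under median-ratio rescaling and to 21.4% and 34.7% with TPM. Of the 19 named here by a rule of up to 3 per role and direction, 8 kept their call in every setting in which they were tested, 4 higher and 4 lower.

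Counts by role stand beside 31.2% higher and 24.7% lower of all tested genes. Of 3 tested chaperone genes 2 were higher and 0 lower. SERPINH1 encodes HSP47, a chaperone of the endoplasmic reticulum that binds the folded triple helix. It was at 54.7 ± 2.3 FPKM in sgNC and 80.7 ± 1.1 FPKM in sgOTUD1 (SD, n = 3 each), a log2 difference of 0.55 (limma adjusted p = 3.94e-05, SE 0.039) and of 0.53 after length correction. FKBP14, a prolyl isomerase that acts on collagen, rose from 3.59 to 4.70 FPKM, whereas FKBP10 (1.25 and 0.863 FPKM) was not called, but was lower after length correction (limma adjusted p = 0.0459). Of 8 tested prolyl hydroxylation genes, 4 were higher and 2 lower. CRTAP, the scaffold of the complex that hydroxylates certain prolines of fibrillar chains, rose from 28.7 to 38.2 FPKM. P4HA1, a catalytic subunit of prolyl 4-hydroxylase (40.7 to 51.0 FPKM), and the cyclophilin PPIB (37.8 to 51.5 FPKM) rose too, but both calls ended after length correction. P3H2, a prolyl 3-hydroxylase that acts on type IV collagen, fell from 36.6 to 28.5 FPKM, and P3H4 from 11.3 to 9.97 FPKM, a call that ended without any one of sgNC replicates 1, 2 and 3 (limma adjusted p from 0.0734 to 0.104), without sgOTUD1 replicate 1 (0.0660), with no filter and with the trend and robust options off.

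Among lysine-modifying enzymes COLGALT1, which adds galactose to hydroxylysine, rose from 80.4 to 89.8 FPKM and the lysyl hydroxylase PLOD2 from 7.87 to 9.32 FPKM, and neither was called under median-ratio rescaling, TPM or limma-voom. COLGALT1 was also not called after length correction (0.05, limma adjusted p = 0.219). PLOD2 was also not called with no filter or without sgNC replicate 1 or 3 or sgOTUD1 replicate 1 or 2 (limma adjusted p from 0.0592 to 0.0887). SEC24D, a coat protein for export of procollagen, was called higher (3.16 and 3.69 FPKM), and the other 4 tested export genes were not called. That call was lost on leaving out any single replicate except sgOTUD1 replicate 3 (limma adjusted p from 0.0504 to 0.0952), with a replicate block (0.0514), with no filter and with median-ratio rescaling, TPM and limma-voom. After length correction 3 export genes were higher and 1 lower, beside 21.4% higher and 31.8% lower of all tested genes. Of the trimming enzymes the procollagen proteinase relative TLL2 rose from 6.54 to 7.93 FPKM, a call that ended with TPM, and the proprotein convertase FURIN fell from 12.1 to 9.44 FPKM. LOX, a lysyl oxidase that starts collagen cross-links, rose from 6.10 to 8.41 FPKM (log2 fold change 0.40, SE 0.068, limma adjusted p = 0.00218), while LOXL2, more abundant at 118 and 123 FPKM, was not called.

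Of 5 tested receptor genes 3 were lower and 1 higher, beside 24.7% lower and 31.2% higher of all tested genes. ITGA2, the alpha chain of a collagen-binding integrin of epithelial cells and platelets, was at 19.4 ± 1.4 FPKM in sgNC and fell to 9.20 ± 0.27 FPKM, a log2 difference of -1.001 (SE 0.056, limma adjusted p = 1.68e-05) and of -0.95 after length correction. DDR1, a receptor kinase for collagen, was at 100.3 and 89.6 FPKM and was called lower, a call that ended after length correction. ITGA1 (1.65 and 1.28 FPKM) was called lower, but not without sgNC replicate 1, 2 or 3 or sgOTUD1 replicate 2 or 3 (limma adjusted p from 0.0668 to 0.142), with no filter or with a replicate block (0.0994), and its log2 difference was 0.017 after length correction. The partner chain ITGB1 (76.9 and 84.7 FPKM) was called higher, but not with median-ratio rescaling, TPM, limma-voom, length correction or the trend and robust options off, nor without sgNC replicate 1 or 3 or sgOTUD1 replicate 1 (limma adjusted p from 0.0541 to 0.0748). Of the collagen-cutting enzymes, the collagenase MMP13 fell from 3.99 to 2.62 FPKM. The gelatinase MMP2 was at 8.53 and 9.80 FPKM and was called higher, but not without sgNC replicate 1 or 2 or sgOTUD1 replicate 2 (limma adjusted p from 0.0549 to 0.0857), nor with no filter, median-ratio rescaling (0.05), TPM (0.05), limma-voom (0.07) or length correction (0.08), against 0.18. MMP14, at 152 and 137 FPKM, was not called, but was lower after length correction (limma adjusted p = 0.00274).

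**Figure D5:**
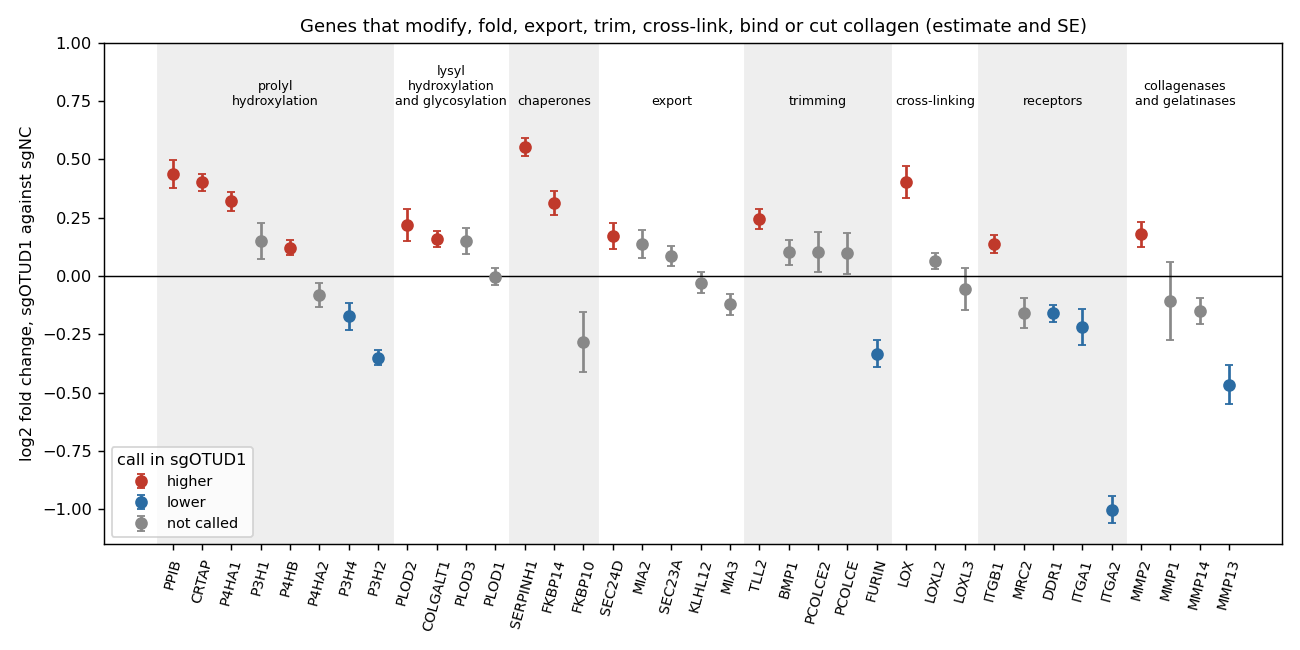
Log2 fold change with its standard error, sgOTUD1 against sgNC, of the 37 tested genes that act on collagen, grouped by role and coloured by the call at an adjusted p under 0.05. SERPINH1 is highest at 0.55 and ITGA2 lowest at -1.001.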

How the data were processed

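Total RNA of 6 libraries (NEBNext Ultra kit, per the labels' protocols) was sequenced, and 1 table was deposited. The authors deposited FPKM values, per the file headers. Per the submitters' processing notes the tools were featureCounts 1.5.0-p3 and DESeq2 1.20.0 and the build hg38. No source used here names the aligner. Groups and replicate numbers come from sample titles. All 58735 identifiers were in GENCODE 29. FPKM times exon length came in whole multiples of a per-library constant for 100% of values, within 0.001 reads, and gave back the reads. That constant did not follow the number of reads on genes. COL17A1, for example, had a log2 difference of -0.63 with limma-voom on the reads and of -0.50 on FPKM.

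Genes of mean FPKM of at least 0.5 (14658) were tested with limma 3.58.1 in R 4.3.3, two-sided, on log2(FPKM + 1). Group was the model's sole term, trend and robust options were on, and p-values were adjusted by Benjamini-Hochberg over all these genes. An adjusted p under 0.05 is a call. This scale understates changes of low genes. For length correction, each library's log2 deviations were fitted against log2 exon length by a spline with 4 degrees of freedom. Nuclear protein-coding genes with mean FPKM from 5 upward were used. The whole fit was subtracted, with its intercept, so the level of each library changed too. Fits were also run on simulated reads. The pass rule there covered only the main fit without a length trend, and changes larger than most given here. It does not vouch for smaller changes. Named genes were OTUD1, each tested collagen, untested ones with 0.1 FPKM or more in a library, and per role of the list of genes acting on collagen up to 3 in each direction with the smallest adjusted p; tested members that were not called may be named. Members, lists and alternatives were chosen with earlier results of these data known. Alternatives were a block for replicate number, each replicate left out in turn, other filters, an offset of 0.1, TPM, rescaling by median ratios, limma with trend and robust options off, length correction, and limma-voom on the recovered reads. Tables were handled in Python 3.11.15 with pandas 2.3.3.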

Additional observations from a re-analysis of the deposited data

How the results depend on the processing

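Of the 11 collagens called lower, 9 kept the call in every setting in which they were tested. The count was 9 with length correction (1 higher), where 31.8% of all tested genes were lower and 21.4% higher. It was 6 with the filter raised to 5 FPKM, where 7 collagens were tested and 24.9% of all tested genes were lower and 49.1% higher. With median-ratio rescaling, TPM or limma-voom it was 14, where 33.9%, 34.7% and 36.2% of all tested genes were lower against 24.7%. When a replicate was left out it was 11 to 12, beside 21.0% to 22.5% of all tested genes. Median-ratio rescaling, TPM and limma-voom put another scaling between libraries in place of the constant in the deposited FPKM, and so does length correction. With them the median log2 fold change of the tested genes moves from 0.03 to between -0.10 and -0.07. For genes acting on collagen, median-ratio rescaling and limma-voom gave 7 higher and 14 lower, TPM 6 and 15, and leaving out a replicate 9 to 13 and 5 to 8, against 13 and 7. Of all tested genes 22.3%, 23.6% and 21.4% were higher under median-ratio rescaling, limma-voom and TPM. That share was 27.7% to 29.4% when a replicate was left out, against 31.2%. The log2 ratio of summed FPKM was -0.42, -0.49 and -0.50 for fibrillar, basement membrane and transmembrane collagens. It was -0.56, -0.63 and -0.64 with median-ratio rescaling, -0.57, -0.64 and -0.65 with TPM, and -0.20, -0.25 and -0.48 with length correction. Without single replicates it was -0.44 to -0.38, -0.51 to -0.48 and -0.52 to -0.48. OTUD1 was at 0.17 to 0.24 without single replicates (not called without sgNC replicate 1 or sgOTUD1 replicate 2), 0.071, 0.061 and 0.082 with median-ratio rescaling, TPM and limma-voom (not called), and -0.062 with length correction. Signs also turned for COL27A1 (0.13) and ITGA1 (0.017) with length correction, for COL13A1 with median-ratio rescaling (-0.032), TPM (-0.057) and limma-voom (-0.047), and for ITGB1 with median-ratio rescaling (-0.00050) and TPM (-0.014). The causes were not tested. Replicate numbers did not pair the samples (correlations of same-numbered deviations 0.002, -0.051 and -0.001). With a replicate block 11 collagens were lower and 0 higher, and 12 genes acting on collagen were higher and 7 lower. Of all tested genes 22.9% were lower and 30.2% higher there. COL4A4, COL9A2 and members below them rest on few reads, so their values are the least precise.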
